A study of Mus musculus with 2 samples.

Results

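Complex I (NADH:ubiquinone oxidoreductase) is the first and largest enzyme of the mitochondrial respiratory chain, and the mouse genes that encode its nuclear parts carry symbols beginning with Nduf. The Nduf genes of the mouse liver were followed through 2 RNA-seq libraries. Members were chosen by name: every protein-coding gene of the GENCODE mouse annotation whose symbol starts with Nduf and that is listed in the deposited tables. This gave 46 genes out of 69691 entries of the gene table. Of these, 38 encode structural subunits (Ndufa, Ndufb, Ndufc, Ndufs and Ndufv) and 8 encode assembly factors (Ndufaf). Both libraries were polyA-selected RNA from the liver of 1 female C57BL/6J mouse aged 10 weeks, and the labels call them technical replicates 2 and 1 of biological replicate 1. Library 2 was made in May 2015, library 1 has no date, and the labels name no treatment or mutation. RNA came from whole liver tissue, extracted with a kit for lipid-rich tissue. With 1 animal there is no comparison of conditions, and a difference between the libraries cannot be told apart from a difference in date or handling. Spread is therefore technical, SDs are over n = 2 libraries, and no p-value was computed. In whole tissue, fewer cells of a type and less RNA per cell cannot be told apart.

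Complex I passes electrons from NADH to ubiquinone and pumps protons across the inner mitochondrial membrane. A matrix arm holds the flavin and the iron-sulfur clusters, and a membrane arm holds the proton pumps. The conserved core is made partly in the nucleus (Ndufs1, Ndufs3, Ndufs7, Ndufs8, Ndufv1 and Ndufv2 among others) and partly from mitochondrial DNA (the mt-Nd genes), and is wrapped in accessory subunits. Assembly factors help to build the enzyme and do not stay in it. Hepatocytes are rich in mitochondria and reoxidise the NADH made by fatty acid oxidation and amino acid breakdown through this complex.

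The deposited expected counts summed to 19525500 in library 2 and 23309905 in library 1. Levels are in TPM, the deposited unit, scaled to transcript length and to the library. Genes of the mitochondrial genome made up 14.9% of the library 2 total and 40.7% of the library 1 total, and nuclear protein-coding genes took 73.7% in library 2 and 37.6% in library 1. The tissue label was met by the hepatocyte markers, of which 6 of 6 had at least 1 TPM in both libraries, with summed levels of 66449.7 TPM in library 2 and 29391 TPM in library 1. Summed Kupffer cell markers came to 149 TPM in library 2 and 63.8 TPM in library 1, sinusoidal endothelial markers to 85.6 TPM in library 2 and 24.5 TPM in library 1, stellate cell markers to 144 TPM in library 2 and 159 TPM in library 1, and bile duct markers to 5.18 TPM in library 2 and 1.96 TPM in library 1. Erythroid markers summed to 2049 TPM in library 2 and 134 TPM in library 1, with 3 of 4 detected in both. None of the 4 exocrine pancreas or 4 muscle markers reached 1 TPM in both libraries, and the highest value was 8.28 TPM in library 2, for an exocrine pancreas marker. The part of blood cell RNA in the differences described here was not tested.

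The members differ widely in base composition, which matters for what follows, so coding stretches of the extremes are shown first. Each line gives the central 120 coding bases of the gene's longest annotated coding sequence, written 5′ to 3′ with G and C in capitals. They come from GENCODE M21 transcripts (build GRCm38) and are spliced, so the genomic interval can hold an intron. The first 3 genes had the highest ratio of library 2 to library 1 among members with reads in both, and the last 3 had the lowest.
Ndufa11: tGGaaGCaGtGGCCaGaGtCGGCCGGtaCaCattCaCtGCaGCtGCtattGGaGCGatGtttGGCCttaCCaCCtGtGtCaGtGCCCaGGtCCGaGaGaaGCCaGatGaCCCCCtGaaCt
Ndufa13: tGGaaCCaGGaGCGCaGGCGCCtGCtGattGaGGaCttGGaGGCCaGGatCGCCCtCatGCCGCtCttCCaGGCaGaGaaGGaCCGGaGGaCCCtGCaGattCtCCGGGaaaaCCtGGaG
Ndufb7: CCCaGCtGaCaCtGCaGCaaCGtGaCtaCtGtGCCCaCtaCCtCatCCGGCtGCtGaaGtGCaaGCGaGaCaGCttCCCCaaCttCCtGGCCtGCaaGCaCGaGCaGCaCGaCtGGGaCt
Ndufaf4: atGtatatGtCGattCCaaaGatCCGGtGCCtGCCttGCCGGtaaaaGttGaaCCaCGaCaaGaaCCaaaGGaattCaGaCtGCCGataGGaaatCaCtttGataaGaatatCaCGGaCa
Ndufv2: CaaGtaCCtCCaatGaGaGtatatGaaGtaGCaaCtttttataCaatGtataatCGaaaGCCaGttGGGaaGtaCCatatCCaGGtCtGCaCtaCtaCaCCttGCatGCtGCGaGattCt
Ndufaf1: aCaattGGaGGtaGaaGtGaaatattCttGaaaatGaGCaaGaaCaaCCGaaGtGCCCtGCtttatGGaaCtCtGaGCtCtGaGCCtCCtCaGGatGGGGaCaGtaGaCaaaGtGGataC
The Ndufa11 stretch lies at chr17:56721086-56721396 on the plus strand and is 57.5% GC. That of Ndufa13 lies at chr8:69894380-69895258 on the minus strand and is 62.5% GC. That of Ndufb7 lies at chr8:83570863-83570982 on the plus strand and is 60.0% GC. Among the last 3, the Ndufaf4 stretch lies at chr4:24898636-24901772 on the plus strand (43.3% GC), that of Ndufv2 at chr17:66087437-66087556 on the minus strand (40.8% GC), and that of Ndufaf1 at chr2:119660029-119660148 on the minus strand (45.0% GC). Over the whole coding sequence the same genes held 58.7%, 60.2%, 61.1%, 44.9%, 46.6% and 43.8% GC, in the order of the lines.

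Complex I genes were expressed throughout the family in library 2 and nearly throughout in library 1. All 38 structural subunit genes reached 1 TPM in library 2, against 34 in library 1, and all 8 assembly factors did so in both. The median structural subunit stood at 147 TPM in library 2 (range 2.27 to 1016) and 36.6 TPM in library 1 (range 0 to 759). The median assembly factor stood at 14.2 TPM in library 2 (range 6.69 to 31.4) and 5.98 TPM in library 1 (range 1.17 to 36.9). On the scale of log2(TPM + 0.1), the structural median lay above the assembly factor median by 3.39 in library 2 and 2.61 in library 1, or 3.0 ± 0.55 (mean ± SD, n = 2). Structural subunits together made up 0.669% of the library 2 total and 0.267% of the library 1 total, or 0.468% ± 0.284. Set against nuclear protein-coding genes alone these shares were 0.908% in library 2 and 0.711% in library 1. Assembly factors made up 0.0136% of the library 2 total and 0.0102% of the library 1 total. The levels were spread more evenly in library 2: the SD of log2(TPM + 0.1) over the 38 structural genes was 1.39 there and 2.92 in library 1. Across the 46 members the log2 levels of the libraries had a Pearson r of 0.59 and a Spearman rho of 0.52, as a description over genes of 1 animal.

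**Figure D1:**
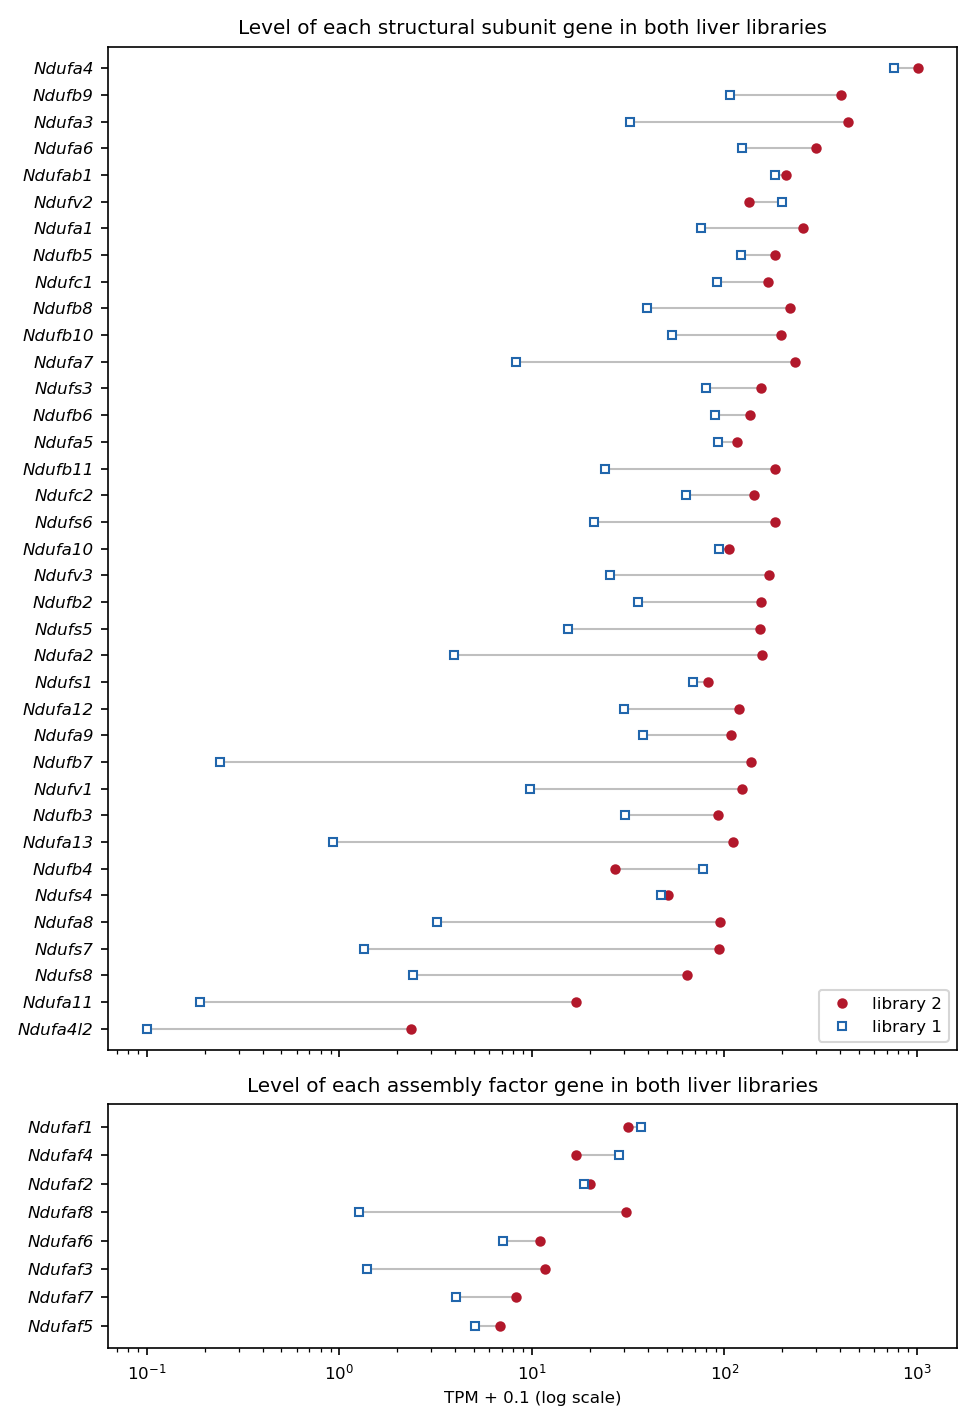
Level of each structural subunit gene described here (upper panel) and of the 8 assembly factor genes (lower panel) as deposited TPM + 0.1 on a log scale, ordered by mean level, with library 2 as filled circles and library 1 as open squares. Over all 38 structural genes the quartiles are 106 and 183 TPM in library 2 and 11.1 and 86.9 TPM in library 1, where values run down to 0 for Ndufa4l2.

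The 10 structural genes of highest mean level were led by Ndufa4, whose product was first assigned to complex I and is now counted with cytochrome c oxidase. Chosen by name, Ndufa4 is kept among the structural subunits in the shares and medians given here. It had 1016 TPM in library 2 and 759 TPM in library 1 and ranked 90th in library 2 and 77th in library 1 among 21461 nuclear protein-coding genes. Ndufb9, an accessory subunit of the membrane arm, followed with 404 TPM in library 2 and 107 TPM in library 1. Ndufa3 had 435 TPM in library 2 and 32.3 TPM in library 1, so its libraries lay much farther apart than those of Ndufa4. Ndufa6, an accessory subunit of the LYR family on the matrix arm, had 300.0 TPM in library 2 and 123 TPM in library 1. Ndufab1, the mitochondrial acyl carrier protein, stood at 207 TPM in library 2 and 182 TPM in library 1, among the closest pairs of values. Ndufv2, which carries an iron-sulfur cluster of the NADH-oxidising module, had 134 TPM in library 2 and 199 TPM in library 1 and was one of 4 members with the lower TPM in library 2. The others were Ndufb4, Ndufaf1 and Ndufaf4. TPM was higher in library 2 for 42 of the 46 members and for 9193 of 12728 tested genes. Ndufa1, an X-linked membrane arm subunit, had 255 TPM in library 2 and 75.4 TPM in library 1. Ndufb5 had 184 TPM in library 2 and 122 TPM in library 1. Ndufc1 had 168 TPM in library 2 and 91.5 TPM in library 1, and Ndufb8 had 219 TPM in library 2 and 39.3 TPM in library 1. These last genes all sit in or near the membrane arm. Their TPM was lower in library 1, as it was for most tested genes. On the TMM-scaled counts described below, Ndufa1 (log2 fold 0.85) and Ndufb8 (1.77) leaned higher in library 2. Ndufb5 (-0.21) and Ndufc1 (-0.33) leaned lower.

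At the other end, 4 structural genes were under 1 TPM in library 1, and each was above that in library 2. Ndufb7, a membrane arm subunit facing the intermembrane space, had 137 TPM in library 2 and 0.14 TPM in library 1. Ndufa13, an accessory subunit also known as a regulator of cell death, had 110 TPM in library 2 and 0.83 TPM in library 1. Ndufa11, a membrane arm subunit at the contact with complex III in supercomplexes, had 16.8 TPM in library 2 and 0.09 TPM in library 1. These 3 genes rested on 946, 1798 and 642 expected counts in library 2 and on 12, 20 and 5 in library 1. Ndufa4l2, a hypoxia-induced relative of Ndufa4, had 2.27 TPM in library 2 and 0 TPM in library 1 (27 counts in library 2 and 0 in library 1). At this depth 3 counts in library 1 would have been about 0.169 TPM, so a level under about that value was not detectable there, for counting error only. The TPM of Ndufa11 also depends on its length: the deposited annotation (M4) gives a transcript of 2661 bases, against 545 bases in M21.

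Among the nuclear core subunits described here, the genes of the same enzyme module were not at the same level within library 1, whereas in library 2 they lay between 63.9 and 156 TPM. Ndufv1, which binds NADH and the flavin, had 123 TPM in library 2 and 9.69 TPM in library 1. Ndufs1, the largest subunit, with several iron-sulfur clusters, had 82.4 TPM in library 2 and 68.3 TPM in library 1. Together with Ndufv2 these form the NADH module, and their library 1 values run from 9.69 to 199 TPM. Ndufs3, of the ubiquinone module, had 156 TPM in library 2 and 79.8 TPM in library 1. Ndufs7 and Ndufs8 carry the last clusters before ubiquinone, and both were near the bottom in library 1. Ndufs7 had 93.8 TPM in library 2 and 1.24 TPM in library 1. Ndufs8 had 63.9 TPM in library 2 and 2.31 TPM in library 1.

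Roles of the assembly factors are known mainly from human cells. The assembly factors were each lower than the median structural gene of the same library, apart from Ndufaf1 in library 1. Ndufaf1, which builds the membrane arm with the Acad9 and Ecsit complex, had 31.4 TPM in library 2 and 36.9 TPM in library 1. Ndufaf2, a relative of Ndufa12 that acts late in assembly, had 20.04 TPM in library 2 and 18.6 TPM in library 1. Ndufaf3 and Ndufaf4 are partners in building the ubiquinone module, and their gene-level TPM went apart between the libraries. Ndufaf3 had 11.6 TPM in library 2 and 1.3 TPM in library 1. Ndufaf4 had 16.9 TPM in library 2 and 28.2 TPM in library 1. That direction lay in Ndufaf4-202, not annotated as coding, with 8.4 TPM in library 2 and 23.2 TPM in library 1. The coding Ndufaf4-201 had 2.37 TPM in library 2 and 0.54 TPM in library 1. The coding Ndufaf4-203 had 6.12 TPM in library 2 and 4.44 TPM in library 1, so both went with Ndufaf3. Ndufaf5, a hydroxylase of an Ndufs7 arginine, had 6.69 TPM in library 2 and 4.95 TPM in library 1. Its partner Ndufaf8 had 30.6 TPM in library 2 and 1.17 TPM in library 1. Ndufaf6, needed for early steps, had 11.0 TPM in library 2 and 7.01 TPM in library 1, and Ndufaf7, a protein arginine methyltransferase, had 8.12 TPM in library 2 and 3.95 TPM in library 1. Thus the order of the 8 factors by level was not kept: Ndufaf8 was near the top in library 2 and lowest in library 1.

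The libraries were then compared gene by gene on counts. Expected counts were rounded and scaled by TMM, and a member was called higher or lower in library 2 when the log2 fold reached 1 in either direction, with intervals for counting error only (exact binomial, 95%). Of the 46 members, 22 were higher in library 2, 4 were lower and 20 lay between. The background was 33.0% of 12728 tested genes higher and 24.0% lower. Structural subunits made up 20 of the 22 and 2 of the 4, with a median log2 fold of 1.01, against 0.04 over all tested genes. The 8 assembly factors were 2 higher and 2 lower, with a median log2 fold of -0.15, which was 0.42 with total count scaling. All 46 members passed the count minimum, so none is left out of these counts. With total count scaling 27 members were higher (background 42.2%) and 1, Ndufaf4, was lower (7.73%), with a structural median of 1.59. The choice of scaling moved the median of all genes from 0.04 to 0.62. Without scaling of counts, the deposited TPM intervals, whose level is not stated, did not overlap and lay higher in library 2 for 36 members (background 54.1%). They lay lower for 3, namely Ndufb4, Ndufv2 and Ndufaf4 (background 13.1%), and overlapped for 7.

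**Figure D2:**
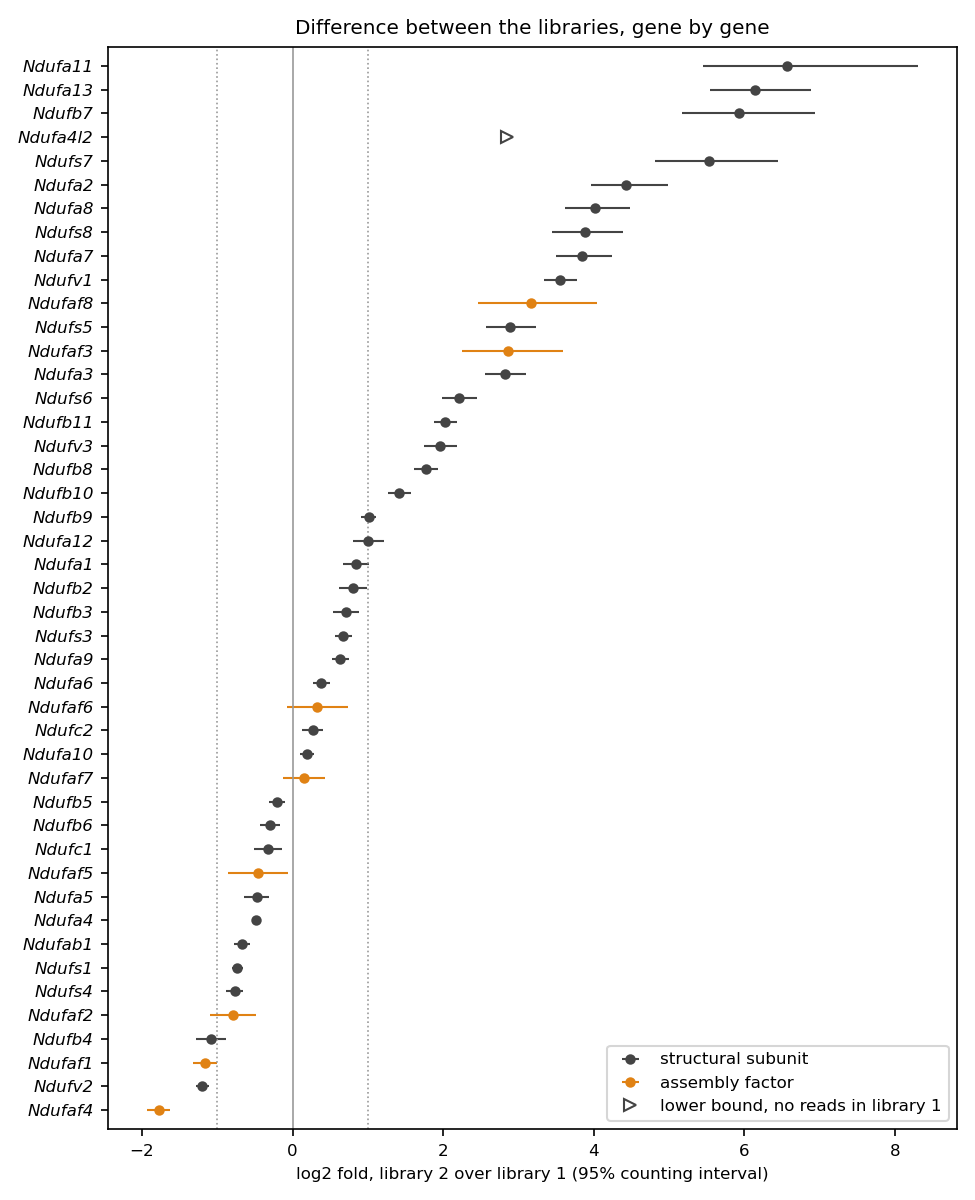
Log2 fold of library 2 over library 1 for each member described here, ordered from highest to lowest, with 95% counting intervals as horizontal bars; dotted lines mark a log2 fold of 1 in either direction and the open triangle is the lower bound of Ndufa4l2. The folds run from 6.56 for Ndufa11 to -1.78 for Ndufaf4, with the assembly factors in orange. Ndufa4l2 is placed in the order by its fitted value and not by the bound drawn.

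Ndufa11 had the highest fold, with 642 counts in library 2 and 5 in library 1, a log2 fold of 6.56 (interval 5.45 to 8.31). Ndufa13 followed with 1798 counts in library 2 and 20 in library 1 (6.14, interval 5.54 to 6.88). Ndufb7 had 946 counts in library 2 and 12 in library 1 (5.93, interval 5.17 to 6.94). These are differences of the same order, and their intervals overlap. Ndufa4l2 was at least 7.20-fold higher in library 2, with its 27 reads there set against a floor of 3 reads in library 1. That bound leaves out the counting error of the 27 reads, and the lower limit of its counting interval was 2.45 on the log2 scale. Ndufs7 had 832 counts in library 2 and 14 in library 1, a log2 fold of 5.53 (interval 4.82 to 6.45). Ndufa2, an accessory subunit of the matrix arm with a thioredoxin-like fold, had 930 counts in library 2 and 34 in library 1 (4.43, interval 3.96 to 4.99). At the low end, Ndufaf4 had 453 counts in library 2 and 1242 in library 1, a log2 fold of -1.78 (interval -1.94 to -1.62). That difference lay in Ndufaf4-202, not annotated as coding, with 281 counts in library 2 and 1150 in library 1. The coding Ndufaf4-201 had 126 in library 2 and 42.6 in library 1. The coding Ndufaf4-203 had 45.9 in library 2 and 49.6 in library 1. Ndufv2 had 1902 counts in library 2 and 3485 in library 1 (-1.20, interval -1.28 to -1.12). Ndufaf1 had 533 counts in library 2 and 954 in library 1 (-1.16, interval -1.32 to -1.01). Ndufb4, treated below because it shares its sequence with another locus, was the remaining gene called lower. Ndufaf2 and Ndufs4, an accessory subunit of the NADH module, came next and were not called: 152 counts in library 2 and 210 in library 1 gave -0.79 for Ndufaf2, and 1060 in library 2 and 1444 in library 1 gave -0.77 for Ndufs4. Ndufa12 and Ndufb9 sat just past the threshold, each with a log2 fold of 1.01. With DESeq2 size factors they fell just under it.

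The other genes of the pathway split by genome. All 7 mitochondrially encoded core subunits were lower in library 2, the opposite direction to most nuclear ones, with a median log2 fold of -2.47. After the subtraction of a GC curve, described below, that median was -0.57 and 2 of the 7 were lower. Among these, mt-Nd2 had the highest mean level, with 9645 TPM in library 2 and 32467 TPM in library 1 (log2 fold -2.64). The lowest fold belonged to mt-Nd3, with 157 TPM in library 2 and 1118 TPM in library 1 (-3.75), and the least negative to mt-Nd6, with 402 TPM in library 2 and 1011 TPM in library 1 (-2.24). Of the other assembly factors, 11 of 12 listed were found by symbol, and 3 of them were higher, 2 lower and 6 uncalled, with a median of 0.37, against the background of 33.0% higher and 24.0% lower. With total count scaling 5 were higher and 0 lower (median 0.95), and after the GC curve 1 was higher and 1 lower (median 0.12). Ecsit, a partner of Ndufaf1, had 28.9 TPM in library 2 and 3.09 TPM in library 1 (log2 fold 2.33). Tmem126b, another member of that complex, had 16.9 TPM in library 2 and 19.2 TPM in library 1 (-1.08). Tmem70, which also acts on ATP synthase, had the highest mean level of this list, with 27.8 TPM in library 2 and 32.4 TPM in library 1 (-1.06). Tmem186 had the lowest mean level, with 5.26 TPM in library 2 and 1.55 TPM in library 1 (0.88).

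The direction of a member followed the GC content of its annotated coding transcripts, as the coding stretches printed above show for the extremes: this was 60.4% for Ndufa13 and 42.3% for Ndufaf4. Of the 14 members with 55% GC or more, 13 were higher in library 2 and none was lower. The class had a median log2 fold of 3.70. Its 1 uncalled member was Ndufa10, placed here by a mean GC described below. Of the 14 members from 50% up to 55%, 9 were higher and 1 lower, with a median of 1.80. Of the 18 members under 50%, none was higher, 3 were lower and 15 were uncalled, with a median of -0.39. With total count scaling this last class had 4 members higher and 1 lower, with a median of 0.19, while the middle class had 10 higher and 0 lower and the top class 13 higher and 0 lower. The background of 33.0% higher and 24.0% lower is over tested genes of any GC, and shares per GC class are not given here. The classes differed in level mainly in library 1. In library 2 the median of the 3 classes, from low to high GC, was 121, 156 and 108 TPM, and in library 1 it was 55.03, 29.4 and 1.80 TPM. Over the 46 members the log2 fold and GC had a Spearman rho of 0.83 (Pearson r 0.84), and over 12656 tested genes with a GC value the rho was 0.87. The log2 level had a rho of 0.01 with GC in library 2 and -0.54 in library 1. Over the 38 structural subunits alone this rho was -0.185 in library 2 and -0.67 in library 1. The log2 fold and gene length had a rho of -0.02. These correlations are over genes that share the same 2 libraries and are given as descriptions.

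**Figure D3:**
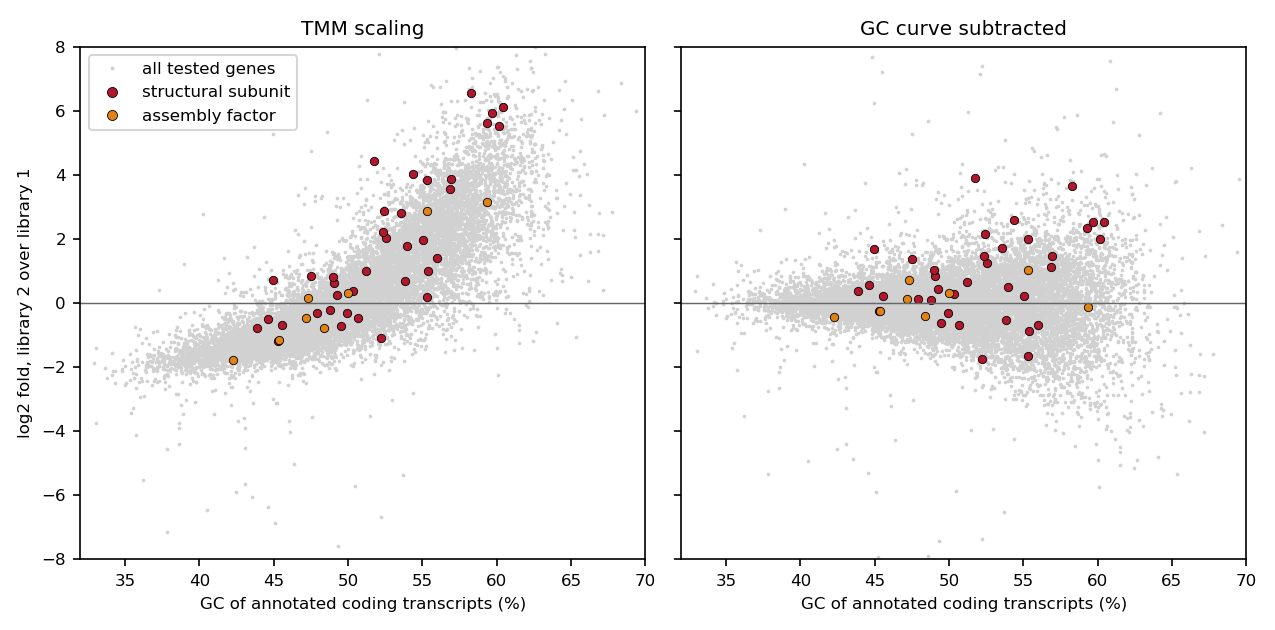
Log2 fold of library 2 over library 1 against the GC percentage of annotated coding transcripts for the structural subunits described here (red), assembly factors (orange) and all tested genes (grey), with TMM scaling (left) and after a smooth curve of fold on GC was subtracted (right); Ndufa4l2 is drawn at its fitted value, and 26 of the grey points lie outside the left axes. On the left the members rise with GC as the other genes do, and on the right most structural subunits lie above 0.

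A smooth curve of fold on GC, fitted over nuclear genes, was subtracted to see what was left. After it, 18 members were higher in library 2 (background 11.5%) and 2 were lower (background 11.4%), so 26 were uncalled. The structural median was 0.60 and the assembly factor median 0.01, against -0.02 over all tested genes. By subfamily, the median was 1.39 over 15 Ndufa genes, 0.30 over 10 Ndufb genes, 0.29 over 2 Ndufc genes, 1.00 over 8 Ndufs genes and 0.22 over 3 Ndufv genes. Members that stood farthest above the curve were Ndufa2 (3.91), Ndufa11 (3.66), Ndufa8 (2.60), Ndufa13 (2.55) and Ndufb7 (2.52). The 2 that lay lower were Ndufb4 (-1.75), which shares its sequence with another locus as treated below, and Ndufa10 (-1.64). The GC used for Ndufa10, 55.3%, is the mean of its coding transcripts Ndufa10-201 (52.1%) and Ndufa10-203 (58.5%). No reads of either library were assigned to Ndufa10-203, so the curve value subtracted for Ndufa10 rests in part on an undetected transcript. Ndufb3, with 45.0% GC, had 92.5 TPM in library 2 and 30.3 TPM in library 1 and was 1.70 above the curve, against 0.71 before it. Ndufb9, Ndufb10 and Ndufaf8 were called higher before the curve and were under it afterwards, at -0.86, -0.67 and -0.13. The GC used for Ndufaf8, 59.3%, is the mean of its coding transcripts Ndufaf8-201 (55.4%) and Ndufaf8-202 (63.2%). Ndufaf8-201 had 128.9 counts in library 2 and 16 in library 1, and Ndufaf8-202 had 2.69 in library 2 and 0 in library 1. The value of Ndufaf8 after the curve thus rests in part on a transcript with few reads. Ndufaf1, Ndufaf4 and Ndufv2 were within 1 of the curve, at -0.24, -0.43 and -0.26. Within the members, the fold left after the curve still had a Spearman rho of 0.33 with GC.

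The nuclear subunits of the other respiratory complexes are given beside complex I on the same scales. The 4 complex II genes had a median log2 fold of 1.03, the 9 complex III genes one of 3.26, the 11 tested of 18 complex IV genes one of 0.86, and the 17 ATP synthase genes one of 0.85, against 1.01 for the 38 structural complex I genes. After the GC curve these medians were 0.27, 1.08, 0.70 and 0.37, in the same order of complexes, against 0.60 for complex I. Complex I thus lay within the range of the other complexes, and no test of a difference between them was made. The median GC of the members was 52.0%, against 50.4% over all tested genes.

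Within genes, the split of TPM between transcripts also differed between the libraries. Of the 46 members, 30 have 2 or more transcripts in the deposited annotation, and 29 of these had at least 1 TPM in both libraries. The main transcript, the one with the highest isoform percentage, was the same in 17 of the 29 and different in 12. In library 2 the main transcript was protein coding in 26 of 29 genes, and in library 1 in 18 of 29. In 9 of the 12 genes that differed, a coding transcript led in library 2 and a transcript annotated as retained intron or processed transcript led in library 1. This ranking is by TPM share. By counts a coding transcript led in library 1 in Ndufa10, Ndufb8, Ndufaf3 and Ndufab1, as given below. The share of a gene's TPM on coding transcripts had a median of 96.4% in library 2 and 73.4% in library 1. It was higher in library 2 in 18 genes, lower in 5 and equal within 0.1 percentage points in 6. In 9 of the 12 genes the main transcript of library 1 had the lower GC, and in 11 of the 12 it was the shorter one. With protein-coding transcripts alone, 25 of 28 genes had the same main transcript in both libraries. The same shares over all genes are not given here, so these counts do not show a trait particular to complex I genes.

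**Figure D4:**
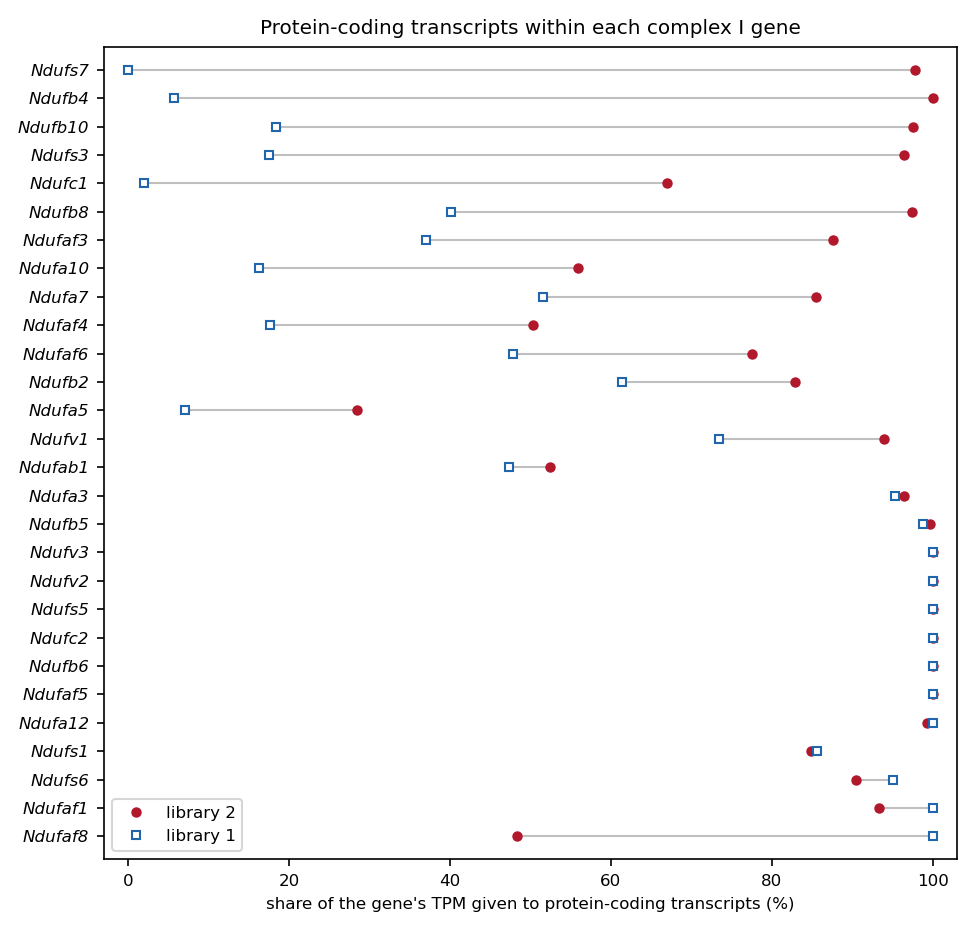
Share of each gene's TPM on transcripts annotated as protein coding, in percent, for 28 of the 29 members with 2 or more transcripts and at least 1 TPM in both libraries, with library 2 as filled circles and library 1 as open squares, ordered by the difference. Ndufs7 stands at the top with 97.7% in library 2 and 0% in library 1, and Ndufaf8 at the bottom with 48.4% in library 2 and 100% in library 1.

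The largest change was in Ndufs7, where the coding transcript Ndufs7-201 had an isoform percentage of 95.95 in library 2 and 0 in library 1. Only 14 reads fell on the gene in library 1, and 12 of them were assigned to the processed transcript Ndufs7-206. In Ndufb4 the coding Ndufb4-201 took 100% in library 2 and 5.66% in library 1, and the retained-intron Ndufb4-202 took 0% in library 2 and 94.3% in library 1. In Ndufv1 the full coding transcript Ndufv1-201 (1661 bases) had 92.7% in library 2 and 8.85% in library 1, where the shorter coding transcript Ndufv1-205 (759 bases) led. In Ndufb10 the retained-intron Ndufb10-205 had 0.34% in library 2 and 80.75% in library 1, on 3.78 counts in library 2 and 363 in library 1. In Ndufs3 the processed transcript Ndufs3-206 had 0% in library 2 and 62.4% in library 1, on 0 counts in library 2 and 595 in library 1. Ndufb8, Ndufc1, Ndufa10, Ndufab1 and Ndufaf3 also had a coding main transcript in library 2 and a non-coding one in library 1. Ndufb8-201 had 95.02% in library 2 and 29.0% in library 1, and Ndufc1-204 had 64.0% in library 2 and 0% in library 1. Ndufa10-201 had 55.9% in library 2 and 16.3% in library 1, Ndufab1-206 had 45.3% in library 2 and 40.4% in library 1, and Ndufaf3-201 had 81.6% in library 2 and 37.0% in library 1. Ndufs5 changed between coding transcripts, with Ndufs5-201 at 98.0% in library 2 and 36.1% in library 1. Ndufaf8 went the other way: the retained-intron Ndufaf8-203 had 51.6% in library 2 and 0% in library 1, on 16 counts for the whole gene in library 1. Ndufa5 and Ndufaf4 had a processed transcript as the main one in both libraries.

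This split changes gene-level TPM, since the length a gene is divided by follows its transcripts. Effective length differed between the libraries by more than 1.3 times in 11 members. In Ndufb7 the retained-intron Ndufb7-202, of 4435 bases, had an isoform percentage of 0.30 in library 2 and 87.95 in library 1, where it was given 11.8 of the gene's 12 reads. The coding Ndufb7-201, of 623 bases, had 919 counts in library 2 and 0.17 in library 1. The fold of this gene in TPM is therefore larger than in counts: the log2 ratio of TPM + 0.1 was 9.16, and the log2 fold of counts was 5.93.

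Ndufb4, an accessory subunit of the membrane arm, shares its whole coding sequence with a processed pseudogene, Ndufb4c, which has no introns and lies at chr15:73809507-73809896 on the minus strand. The 390 bases of Ndufb4c equal the Ndufb4 coding sequence and stop codon without a difference. The first 120 coding bases, at chr16:37654240-37654359 on the minus strand in Ndufb4, are shown once for both loci.
Ndufb4 and Ndufb4c: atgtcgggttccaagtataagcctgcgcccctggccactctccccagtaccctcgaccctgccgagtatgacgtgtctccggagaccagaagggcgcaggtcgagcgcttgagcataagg
Reads inside this sequence cannot be assigned to either locus by sequence. Ndufb4 had 324 counts in library 2 and 547 in library 1 (log2 fold -1.08, interval -1.28 to -0.88), and Ndufb4c had 729 in library 2 and 182 in library 1. Ndufb4c thus held 69.2% of the pair's counts in library 2 and 25.01% in library 1. Summed, the pair had 1053 counts in library 2 and 729 in library 1, a log2 fold of 0.21 (interval 0.07 to 0.35), so the call of Ndufb4 as lower in library 2 was lost and is reported as uncertain. In library 1, 468 of the Ndufb4 counts were given to Ndufb4-202, which holds 50.8% of the 25-base words of Ndufb4c.

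The promoters of 40 members were matched by symbol in the RefSeq table (GRCm38.p6), from 250 bases before to 50 bases after each start site, and had a median GC of 59.2%, against 52.8% over 27025 genes. They were searched on both strands for short letters of factors known to act on respiratory chain genes, NRF1 (GCGCATGC), GABPA (CCGGAAGT) and YY1 (AAGATGGC), and for the TATA box (TATAAA). The NRF1 letters, which overlap their own reverse complement, were in 5 of 40 members (12.5%) and in 3.05% of all genes. The YY1 letters were in 8 of 40 members (20%) and in 3.19% of all genes. In all 8 the match lay after the start site, its first base 10 to 38 bases downstream, and the letters hold ATG. The GABPA letters were in 1 member (2.50%), against 4.31% of all genes, and the TATA letters in 4 (10.0%), against 15.7%. Examples are shown with the match in capitals, NRF1 in the first 3 and YY1 in the last 2.
Ndufa11: cctgcactgcGCGCATGCgcgcacgcct
Ndufa6: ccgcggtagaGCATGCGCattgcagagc
Ndufa8: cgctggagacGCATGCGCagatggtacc
Ndufs7: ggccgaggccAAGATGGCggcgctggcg
Ndufaf8: ggcagggcccAAGATGGCggcgccctcg
The window of Ndufa11 lies at chr17:56717692-56717719 (plus strand), that of Ndufa6 at chr15:82354357-82354384 (minus strand), that of Ndufa8 at chr2:36049329-36049356 (minus strand), that of Ndufs7 at chr10:80249463-80249490 (plus strand) and that of Ndufaf8 at chr11:120098934-120098961 (plus strand). The 27025 genes were not matched to the members in promoter GC or in expression, and enrichment of the letters was not tested. A match describes letters only, and the members that hold one include genes on either side of the fold order, such as Ndufa11 (6.56) and Ndufaf4 (-1.78) for NRF1.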

How the data were processed

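PolyA RNA-seq of 1 liver was deposited as 2 libraries, each with a gene and a transcript table on mm10 with annotation M4, per the file headers and descriptions. The deposited expected counts are estimated, unnormalised counts. The TPM values deposited by the authors are scaled to length and library, and the deposited isoform share is in percent of a gene's TPM. The sources used here do not give the aligner, the counter or the strandedness. The members and lists were chosen with earlier results of these data known. Symbols, transcript types and GC came from GENCODE M21 (GRCm38), and of 43346 Ensembl genes 42462 had a symbol there.

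Counts were rounded to whole numbers, genes whose libraries summed to under 20 were dropped, and log2 folds of library 2 over library 1 were computed with edgeR 4.0.16 (TMM, prior count 0.5). With 1 library on each side the quasi-likelihood test has no residual degrees of freedom, so no test was run. Intervals are exact binomial at 95% and, like the floor of 3 counts, cover counting error only. A gene's GC is the unweighted mean over its M21 coding transcripts. The GC curve is a loess fit (span 0.3) over nuclear genes. The fold step was tested on simulated counts, drawn for both libraries from 1 pooled profile with few genes changed. That setting lacks the GC trend and the unlike mitochondrial shares of the real libraries, so it does not test the scaling under them. A copy has at least 50% of its 25-base words in a member. Alternatives were DESeq2 1.42.0 size factors, total counts, TPM ratios, count minimums of 1 and 200, leaving out mitochondrial genes and copies, other detection limits and single libraries. Named genes followed a fixed rule of level, role, fold and isoform change. Genes named for their position after the GC curve were chosen after their values were seen. Counts and medians cover all 46 members, but 1 member is not reported here on its own.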

Additional observations from a re-analysis of the deposited data

Results flagged for a closer look

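The processed pseudogene Ndufb4c, which is not a member because it is not annotated as protein coding, carried 729 expected counts (231 TPM) in library 2 and 182 (38.5 TPM) in library 1. It was singled out because it is a signal outside the protein-coding genes, above the 3 counts used as the floor of an empty entry. The other 3 Nduf-named pseudogenes had at most 2 counts in either library. Its 390 bases equal the Ndufb4 coding sequence and stop codon, so the deposited tables do not show which locus the reads came from.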

How the results depend on the processing

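No paired analysis was possible because both libraries belong to 1 group of 1 animal. Setting the TPM minimum at 5 left 4 of 8 assembly factors detected, and the structural share averaged 0.809% when set against nuclear protein-coding genes only. Members lower in library 2 numbered 1 with total counts, 1 by the ratio of deposited TPM and 2 after the GC curve, against 4. The structural median log2 fold was 1.59 with total counts, 1.94 by TPM ratio and 0.60 after the GC curve. The assembly factor median was 0.42 with total counts, 0.53 by TPM ratio and 0.01 after the GC curve. The causes were not tested. Ndufb9 (-0.86), Ndufb10 (-0.67) and Ndufaf8 (-0.13) were called and changed sign after the GC curve, as did 8 members not called before it, of which 1 (Ndufa10, -1.64) was then called lower. For Ndufaf8 and Ndufa10 the GC used rests in part on a coding transcript with few or no reads. The sign of Ndufb4 also changed (0.21) when it was summed with Ndufb4c, a setting chosen after seeing the data. Using 1 library at a time gave 34 to 38 structural subunits and 8 to 8 assembly factors detected, a structural share of 0.267% to 0.669%, and a gap between the medians of 2.61 to 3.39. Members higher in library 2 numbered 18 to 29 under the alternatives, against 22. The main transcript was shared by 17 of 29 genes, and by 14 of 22 at a TPM minimum of 10, 25 of 28 with coding transcripts only and 18 of 29 for transcripts with at least 10 counts. Depth limits the genes with under 50 counts in library 1, whose intervals are wide. One animal gives no biological spread.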

Other observations

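Beyond Ndufb4c, members share sequence with several other loci. The processed pseudogene Gm4459, with 94.4% of its 25-base words in Ndufab1, had 21.8 counts in library 2 and 75.7 in library 1, against 1210 in library 2 and 1541 in library 1 for Ndufab1. BC002163, with 83.4% of its words in Ndufs5, had 8.05 counts in library 2 and 55.5 in library 1, against 792 in library 2 and 84.5 in library 1 for Ndufs5, so the copy's part of the pair's reads was larger in library 1. Gm15920, a copy of Ndufa12, had 15.2 counts in library 2 and 3.99 in library 1.

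Some members overlap a gene on the opposite strand. Exons of Smim27 cover 39.0% of the exonic bases of Ndufb6, and it had 90 counts in library 2 and 26 in library 1. Mrpl47, which overlaps 12.3% of Ndufb5, had 241 counts in library 2 and 287 in library 1. Tssk6, which overlaps 30.0% of Ndufa13, had 0 counts in both libraries. Since the strandedness of counting is not given in the sources used here, reads of such pairs could not be told apart here.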
